A study of Homo sapiens with 6 samples.

Results

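The genes described here encode 9 enzymes that make asparagine, arginine, proline, alanine and aspartate or that feed these pathways. They are ASNS, ASS1, ASL, GPT2, GOT1, PYCR1, ALDH18A1, PCK2 and BCAT1, and were found by symbol among the 25445 rows of the deposited count table, 1 row each. All 9 passed the filter on low counts. They were chosen with their difference between 6j treated and non-treated cells already known, so that difference is given here as a description, with no test of the set. RNA was sequenced from MHCC-97H, an established cell line from human hepatocellular carcinoma. In 3 libraries the cells had been exposed for 16 h to 6j at 10 μM (6j treated), and in 3 to its solvent for as long (non-treated, called Control in the plots). 6j is a compound made from sophoridine, an alkaloid of Sophora plants. All libraries came from this single cell line and were grown in medium with fetal bovine serum and antibiotics. The labels do not say whether the libraries of a group came from separate cultures, so the spread between them may be technical.

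Cells that lack an amino acid or that suffer stress of the endoplasmic reticulum (ER) slow protein synthesis and make more of the transcription factor ATF4. ATF4 is known for raising genes of amino acid supply, and the asparagine synthetase gene ASNS is among its classic targets. It binds, with C/EBP family partners, a short element (CARE, for C/EBP-ATF response element) that is found near the start of several such genes. In the liver, argininosuccinate synthase (ASS1) and argininosuccinate lyase (ASL) also serve the urea cycle. Aspartate is used both by ASNS and by ASS1, which links these pathways to the aspartate aminotransferase GOT1.

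Promoters that hold the ATF4 element are shown first, because ASNS is a known target of this factor. RefSeq promoters (250 bases before to 50 after the gene start, build GRCh38.p14) were found for 7 of the 9 genes, and GPT2 and PYCR1 had no entry. CARE was searched as TGATGNAA on both strands, and the cyclic AMP response element (CRE), a site for other factors of the same family, as TGACGTCA. CARE was present in 3 of the 7 promoters, those of ASNS, GOT1 and BCAT1. It was present in 171 of the 10439 promoters of genes tested (1.64%). CRE was in none of the 7 promoters, so no match overlapped another, and in 332 of the 10439 (3.18%). In the 150 bases before the start, CARE remained in the windows of ASNS and BCAT1, against 0.709% of all promoters. A match in letters is a description and does not show binding. The promoters of ASS1, PCK2, ASL and ALDH18A1 held no CARE. For ASS1 the window (chr9:130444457-130444756, plus strand) ended before the GENCODE start at 130444929. The bases next to that start were therefore not searched. Of the genes with CARE, ASNS rose 3.33-fold, BCAT1 1.7-fold and GOT1 1.24-fold in 6j treated cells. Of those without it, ASS1 and PCK2 rose 2.58-fold and 2.49-fold, and ASL and ALDH18A1 did not rise. The part of CARE in these differences was not tested. As the genes were chosen with their difference known, nothing is read from the share with CARE or from this comparison. The windows lie on chr7:97872359-97872658 (ASNS, minus strand), chr10:99430575-99430874 (GOT1, minus strand) and chr12:24949052-24949351 (BCAT1, minus strand). They are written 5′ to 3′ along the gene, and capitals mark CARE.
ASNS: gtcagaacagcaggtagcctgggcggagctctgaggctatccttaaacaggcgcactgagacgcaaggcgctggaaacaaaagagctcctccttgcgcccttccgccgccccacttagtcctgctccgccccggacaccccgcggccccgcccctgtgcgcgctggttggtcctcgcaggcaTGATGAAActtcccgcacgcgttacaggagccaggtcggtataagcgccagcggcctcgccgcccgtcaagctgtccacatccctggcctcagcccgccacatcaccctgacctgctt
GOT1: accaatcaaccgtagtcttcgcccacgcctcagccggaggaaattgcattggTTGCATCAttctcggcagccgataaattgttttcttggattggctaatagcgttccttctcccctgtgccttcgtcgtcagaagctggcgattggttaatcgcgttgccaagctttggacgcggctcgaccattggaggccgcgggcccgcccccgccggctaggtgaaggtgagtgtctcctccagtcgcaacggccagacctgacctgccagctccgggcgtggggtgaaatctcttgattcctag
BCAT1: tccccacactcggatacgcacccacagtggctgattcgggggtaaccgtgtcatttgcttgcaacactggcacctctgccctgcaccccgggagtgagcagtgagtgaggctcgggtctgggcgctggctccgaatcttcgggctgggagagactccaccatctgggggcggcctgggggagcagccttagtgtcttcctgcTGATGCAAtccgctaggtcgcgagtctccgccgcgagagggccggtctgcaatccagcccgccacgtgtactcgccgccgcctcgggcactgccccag
In ASNS, the matched letters TGATGAAA began 68 bases before the start, and in BCAT1 TGATGCAA began 48 bases before it. In GOT1 the match was on the opposite strand, TTGCATCA, and began 198 bases before the start. These distances are from the RefSeq start. The gene coordinates given below are from GENCODE, where each of these genes starts farther upstream, at 97872542 (ASNS), 99431569 (GOT1) and 24949459 (BCAT1). The matches thus lie before the RefSeq start but inside the GENCODE gene.

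The total count per library ranged from 31533403 to 38018349. Levels are given as CPM (the count scaled to the TMM normalized library size) and 15957 rows were tested. A gene counted as a DEG (differentially expressed gene) when edgeR's quasi-likelihood adjusted p was below 0.05 and its levels differed by more than 1.5-fold (0.585 on the log2 scale). ATF4 itself was a DEG, at 317.1 ± 29.8 CPM in non-treated and 679.7 ± 17.4 CPM in 6j treated cells (SD, n = 3 each). Its level on the log2 scale rose by 1.10 (SE 0.09), with an adjusted p = 0.000839 in edgeR. The share of counts on mitochondrial genes was 3.83% to 4.86% in non-treated and 2.65% to 3.46% in 6j treated cells. The share on rows named as new genes was 2.97% to 3.15% and 3.35% to 4.25%, highest in 6j replicate 3. Neither pair of ranges overlapped, and the part of these shares in the results was not tested. The labelled cell type was compared with 13 liver and liver cancer markers, and 10 of them were too low to be tested. Among these 10, which include ALB, AFP, APOA1, TTR and GPC3, no library reached more than 9 counts (0.262 CPM). In non-treated cells the liver factor HNF4A had 0.969 ± 0.369 CPM (SD, n = 3), while the keratin gene KRT8 was at 604.8 ± 77.2 CPM. The summed level of the whole list was 905.3 to 1109.8 CPM in non-treated and 705.6 to 824.6 CPM in 6j treated cells, and KRT8 and KRT18, which overlap on opposite strands, held almost all of it. Its part in the results was not tested. The defining secreted liver products were thus at or near 0, which goes against the labelled liver cell type. These markers alone cannot settle what a carcinoma line is, and its identity was not tested. KRT8, KRT18 and, outside this list, the liver urea cycle enzyme CPS1 (1610.9 ± 63.1 CPM in non-treated cells, SD, n = 3) were high. Of the 6 fibroblast markers 3 were tested, and COL1A1 was at 243.8 ± 30.3 CPM in non-treated cells, while COL1A2 had no count in any library. The summed level of the fibroblast list was 269.3 to 329.3 CPM in non-treated and 248.0 to 314.7 CPM in 6j treated cells. Of the leukocyte markers PTPRC and CD3E had no count in any library, which at 3 counts allows up to 0.0952 CPM, and CD68 was at 51.3 ± 16.7 CPM in non-treated cells. The 4 leukocyte markers summed to 40.4 to 70.8 and 42.5 to 53.1 CPM, and the 4 endothelial markers to 2.18 to 6.25 and 1.86 to 4.03 CPM. The groups overlapped in these last 3 lists.

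Of the 9 enzyme genes, 6 passed both thresholds and none of these 6 was lower in 6j treated cells. They were ASNS, ASS1, PCK2, GPT2, BCAT1 and PYCR1, with fold changes from 1.62 to 3.33. Over all rows tested, 3.6% were DEGs, 2.48% that rose and 1.12% that fell, and since the genes were chosen on this difference nothing is read from the count. GOT1 was higher by less than 1.5-fold, and ALDH18A1 and ASL had log2 fold changes below 0. In 7 of the 9 genes the groups did not overlap, which was so for 31.7% of all rows, 16.0% with 6j treated cells higher and 15.8% with them lower. Summed over the 9 genes, the level was 677.7 to 695.1 CPM in non-treated and 1294.0 to 1391.8 CPM in 6j treated cells. The median log2 fold change of the 9 genes was 0.77, against 0.00 over all rows tested. In a bulk sample such a difference cannot be divided between the number of responding cells and the RNA per cell.

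**Figure D1:**
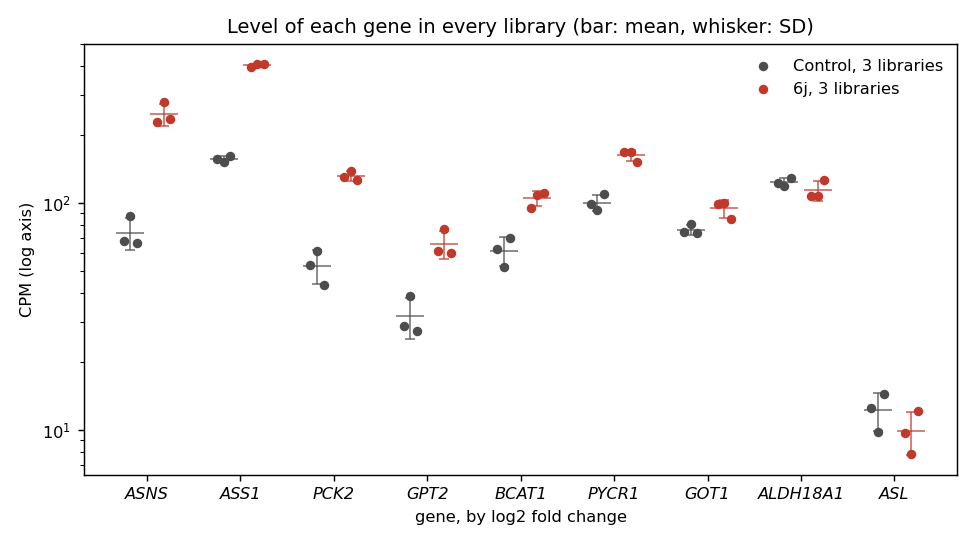
CPM on a log axis of the 9 enzyme genes in each of the 3 non-treated (Control, grey) and 3 6j treated libraries (red), with the mean as a bar and the SD as a whisker, ordered by log2 fold change. All 3 red points lie above the grey points in the 7 genes from ASNS to GOT1, and the groups overlap in ALDH18A1 and ASL.

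ASNS, which moves the amide nitrogen of glutamine onto aspartate to make asparagine, had the largest log2 fold change of the 9. The gene lies on chromosome 7 from 97852118 to 97872542 (GENCODE version 29, GRCh38, minus strand). Its level was 67.7, 87.7 and 66.7 CPM in non-treated replicates 1 to 3 and 227.1, 278.1 and 234.9 CPM in 6j treated replicates 1 to 3. The lowest 6j treated library thus stood far above the highest non-treated one, and replicate 2 was the highest in both groups. The log2 fold change was 1.74 (SE 0.13), a 3.33-fold rise that placed ASNS at position 46 among the 396 DEGs that rose. With 1 library left out it was 1.64 to 1.88, and it was a DEG in all 6 such fits.

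The arginine pair differed within itself. ASS1 (chromosome 9, 130444929 to 130501274, plus strand), which joins citrulline and aspartate to argininosuccinate, was at 156.8, 152.1 and 160.6 CPM in non-treated and 396.7, 407.5 and 409.2 CPM in 6j treated cells. Relative to their means these were the tightest groups of the set, with SDs of 4.23 and 6.81 CPM (n = 3 each). The log2 fold change was 1.37 (SE 0.07), a 2.58-fold rise, and it stayed between 1.35 and 1.39 with 1 library left out. ASL (chromosome 7, 66075798 to 66093558, plus strand), which splits argininosuccinate into arginine and fumarate, was at 12.5, 9.77 and 14.4 CPM in non-treated and 9.66, 7.83 and 12.1 CPM in 6j treated cells. The groups of ASL overlapped, and its log2 fold change of −0.31 (SE 0.20) was not a DEG call in any of the fits run. The log2 level of ASS1 minus that of ASL was 3.64, 3.95 and 3.47 in non-treated and 5.35, 5.69 and 5.08 in 6j treated cells, a change of 1.68 that was not tested and that was looked at after the values had been seen. GENCODE version 29 lists 11 pseudogenes of ASS1, 4 of ASNS and 1 of ASL, none with a row in the table, so how reads shared with them were counted is uncertain. ASL shares exon bases on its strand with AC068533.4, which had at most 8 counts in a library.

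The proline genes showed the same kind of split. ALDH18A1 (chromosome 10, 95605929 to 95656706, minus strand) turns glutamate into the precursor pyrroline-5-carboxylate, and PYCR1 (chromosome 17, 81932384 to 81942412, minus strand) reduces that precursor to proline in mitochondria. PYCR1 was at 99.0, 92.7 and 109.2 CPM in non-treated and 168.2, 167.4 and 151.1 CPM in 6j treated cells, with no overlap. The log2 fold change of PYCR1 was 0.69 (SE 0.09), a 1.62-fold rise, and it was a DEG in all 6 fits that left out 1 library. ALDH18A1 was at 122.6, 119.2 and 129.3 CPM in non-treated and 107.3, 107.0 and 126.5 CPM in 6j treated cells. The third 6j treated library of ALDH18A1 lay inside the non-treated range, and its log2 fold change was −0.12 (SE 0.09). The log2 level of PYCR1 minus that of ALDH18A1 was −0.31, −0.36 and −0.24 in non-treated and 0.65, 0.64 and 0.26 in 6j treated cells, a change of 0.82 that was not tested. Per kb of merged exons, PYCR1 was at 32.1 to 37.8 CPM and ALDH18A1 at 31.6 to 34.3 CPM in non-treated cells, which overlapped, against 52.4 to 58.3 and 28.4 to 33.6 CPM in 6j treated cells, which did not. This pair, too, was looked at after the values had been seen. PYCR1 shares exon bases on its strand with MYADML2, which had at most 17 counts in a library.

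Among the aminotransferases, GPT2 and BCAT1 rose past the threshold and GOT1 did not. GPT2 (chromosome 16, 46884378 to 46931297, plus strand), the mitochondrial enzyme that exchanges the amino group between alanine and glutamate, was at 28.7, 39.0 and 27.2 CPM in non-treated and 61.4, 76.7 and 60.1 CPM in 6j treated cells, with replicate 2 highest in both groups. GPT2 had a log2 fold change of 1.06 (SE 0.16), a 2.09-fold rise. Without non-treated replicate 1 it was no longer a DEG, as its adjusted p was 0.0511 in edgeR (log2 fold change 1.00). BCAT1 (chromosome 12, 24810022 to 24949459, minus strand), the cytosolic enzyme that takes the amino group from leucine, isoleucine and valine, was at 62.8, 52.1 and 69.8 CPM in non-treated and 95.2, 108.6 and 110.3 CPM in 6j treated cells, which did not overlap. BCAT1 had a log2 fold change of 0.77 (SE 0.12), a 1.70-fold rise. Without 6j replicate 2 it was no longer a DEG, as its adjusted p was 0.0529 in edgeR (log2 fold change 0.74). GOT1 (chromosome 10, 99396870 to 99431569, minus strand), the cytosolic aspartate aminotransferase, was at 74.3, 80.9 and 73.5 CPM in non-treated and 99.0, 100.3 and 84.7 CPM in 6j treated cells. The groups of GOT1 did not overlap, but it missed both thresholds, with a log2 fold change of 0.31 (SE 0.09) and an adjusted p = 0.0628 in edgeR. With replicate numbers fitted as blocks its adjusted p was 0.00381 in edgeR, and in DESeq2 it was 0.0288. In both of these the log2 fold change, again 0.31, stayed below the 1.5-fold threshold. GPT2, BCAT1 and GOT1 thus all lay higher in every 6j treated library, by different amounts.

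PCK2 (chromosome 14, 24094053 to 24110598, plus strand) is the mitochondrial phosphoenolpyruvate carboxykinase, which turns oxaloacetate into phosphoenolpyruvate. It was at 53.2, 61.5 and 43.6 CPM in non-treated and 129.5, 138.4 and 126.2 CPM in 6j treated cells. The spread was wider among the non-treated libraries (SD 8.96 CPM) than among the 6j treated ones (SD 6.33 CPM), and the groups lay far apart. The log2 fold change was 1.32 (SE 0.12), a 2.49-fold rise that remained a DEG in all 6 fits with 1 library left out, between 1.20 and 1.44.

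The libraries carry replicate numbers, and those of the same number deviated from their group means together (correlations over 15957 rows of 0.171, 0.18 and 0.312). Deviations within a group cancel out, so the correlations are not independent, and those between libraries of different numbers were −0.231 to 0.0795. The change was therefore also taken within each number. All 9 genes moved in a single direction in the 3 numbers, with 7 higher and 2 lower in 6j treated cells. Over all rows, 57.1% kept a single sign, 28.4% higher and 28.7% lower, and as the genes were chosen on this difference nothing is read from the count. For ASNS the log2 change was 1.75, 1.66 and 1.82 in replicates 1, 2 and 3, and for ASS1 it was 1.34, 1.42 and 1.35. BCAT1 and PYCR1 varied more, with 0.60, 1.06 and 0.66 for BCAT1 and 0.76, 0.85 and 0.47 for PYCR1. PYCR1 in replicate 3 was thus under the 1.5-fold line. ASL, whose groups overlapped, was lower by a like amount in each number (−0.37, −0.32 and −0.25), and ALDH18A1 had −0.19, −0.15 and −0.03. When the replicate number entered the fit as a block, the same 6 genes were DEGs, and so were 6.47% of all rows (4.01% that rose and 2.46% that fell).

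**Figure D2:**
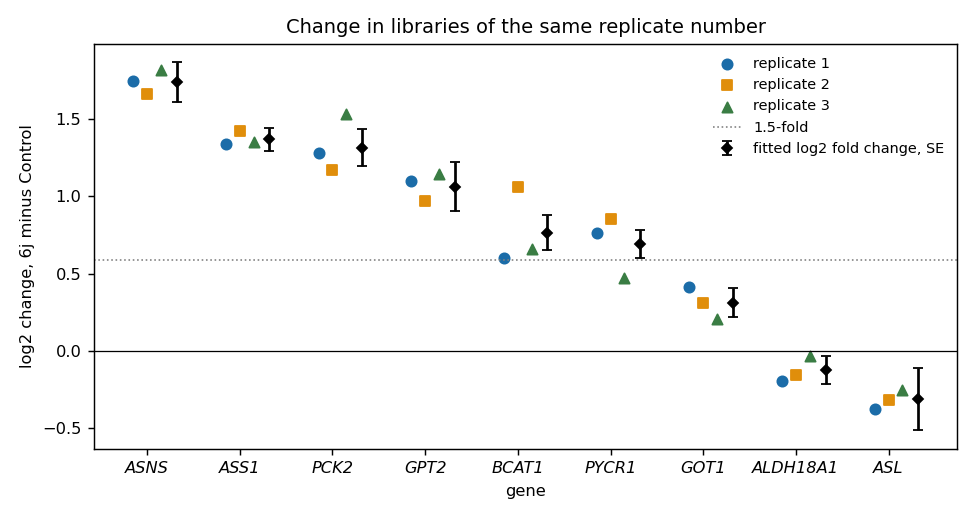
Log2 change of 6j treated minus non-treated libraries for the 9 enzyme genes, taken within replicate numbers 1 (circle), 2 (square) and 3 (triangle), beside the fitted log2 fold change with its SE (diamond); the dotted line is a 1.5-fold rise. The 3 numbers lie close together for ASNS and ASS1 and farther apart for BCAT1, where replicate 2 is at 1.06.

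The order of the replicates differed among the genes. In non-treated replicate 2, ASNS, GPT2, PCK2 and GOT1 were at their highest among the non-treated libraries, and the other 5 genes were at their lowest. In 6j replicate 2, ASNS, GPT2, PCK2 and GOT1 were again the highest of their group. Of the other 5 genes, ASL and ALDH18A1 were lowest in 6j replicate 2, and ASS1, PYCR1 and BCAT1 lay between the other libraries. Non-treated replicate 2 was the library with the lowest total count, and the part of depth in this pattern was not tested.

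The 9 genes differed widely in level. Per kb of merged exons, non-treated cells held 51.3 ± 1.39 CPM of ASS1, 34.8 ± 2.88 of PYCR1, 32.8 ± 1.37 of ALDH18A1 and 22.6 ± 1.21 of GOT1 (SD, n = 3 each). ASNS followed with 16.6 ± 2.67 and PCK2 with 12.6 ± 2.14 CPM per kb, and BCAT1, GPT2 and ASL were the lowest with 5.23 ± 0.757, 4.98 ± 1.02 and 3.83 ± 0.732 CPM per kb. Neighbours in this order overlapped for PYCR1 with ALDH18A1, for BCAT1 with GPT2 and for GPT2 with ASL, and the other neighbours did not overlap. In 6j treated cells ASS1 stayed first with 132.6 ± 2.23 CPM per kb, and PYCR1 (56.2 ± 3.33) and ASNS (55.4 ± 6.17) came next and overlapped. PCK2 stood at 31.4 ± 1.51, ALDH18A1 at 30.2 ± 2.97 and GOT1 at 28.1 ± 2.57 CPM per kb, each overlapping its neighbour among these 3. ASNS thus passed GOT1 and ALDH18A1, and ASL was last in both groups. With the length of the longest transcript in place of all merged exons, ASNS stood above GOT1 already in non-treated cells (31.4 against 26.1 CPM per kb), and above PYCR1 in 6j treated cells.

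**Figure D3:**
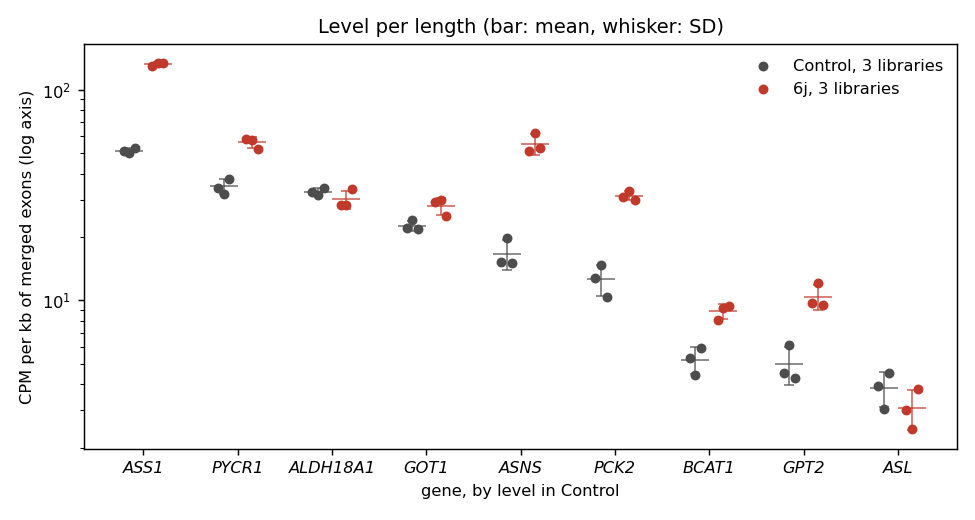
CPM per kb of merged exons, on a log axis, for the 9 enzyme genes in the 3 non-treated (Control, grey) and 3 6j treated libraries (red), with mean (bar) and SD (whisker), ordered by the level in non-treated cells. ASS1 is the highest gene in both groups and ASL the lowest, and ASNS, PCK2 and GPT2 lie higher in the red order than in the grey order.

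Several of these enzymes have an isozyme that runs the same reaction in another compartment. These were GPT (cytosolic), GOT2 (mitochondrial), PCK1 (cytosolic), BCAT2 (mitochondrial) and PYCR3 (cytosolic). None of these 5 isozymes was a DEG, and all 5 log2 fold changes lay below 0, against 50.7% of all rows above 0. Their median was −0.25. PYCR3 had the largest difference, with 22.3, 16.3 and 19.0 CPM in non-treated and 14.4, 7.30 and 9.20 CPM in 6j treated cells, which did not overlap. Its log2 fold change of −0.90 (SE 0.24) missed the threshold, with an adjusted p = 0.0552 in edgeR. When replicate numbers were fitted as blocks PYCR3 was a DEG (log2 fold change −0.94, adjusted p = 0.000332 in edgeR), and it was one in DESeq2 (adjusted p = 0.00274). With 1 library left out, PYCR3 was a DEG only without 6j replicate 1 (−1.22, adjusted p = 0.0108 in edgeR).

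GOT2 was at 175.4 ± 6.88 CPM in non-treated and 143.8 ± 15.5 CPM in 6j treated cells (SD, n = 3 each), with no overlap and −0.29 as log2 fold change (adjusted p = 0.0898 in edgeR). With replicate numbers fitted as blocks its adjusted p was 0.00663 in edgeR, and in DESeq2 it was 0.0417. The fold change of GOT2 stayed below the 1.5-fold threshold in both. For BCAT2, whose groups did not overlap either, the log2 fold change was −0.22 (adjusted p = 0.243 in edgeR). GPT and PCK1 were low, at 4.56 ± 1.15 and 2.12 ± 0.114 CPM in non-treated and 3.94 ± 0.993 and 1.78 ± 0.981 CPM in 6j treated cells (SD, n = 3 each), and their groups overlapped. For both, a single library set the sign of the difference, since the log2 fold change of GPT (−0.21) was 0.016 without non-treated replicate 1 and that of PCK1 (−0.25) was 0.055 without 6j replicate 1.

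The log2 ratio of each enzyme to its isozyme lay higher in every 6j treated library than in any non-treated library, in all 5 pairs. It rests on the differences of the chosen enzymes and is a description, with no test. GOT1, whose own difference was small, had log2 ratios to GOT2 of −1.30, −1.10 and −1.20 in non-treated and −0.67, −0.55 and −0.59 in 6j treated cells, a change of 0.60. PCK2 to PCK1 changed by 1.71 and PYCR1 to PYCR3 by 1.64. GPT2 to GPT changed by 1.28 and BCAT1 to BCAT2 by 0.99. The ratios are not corrected for gene length, so only their change between groups is read.

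**Figure D4:**
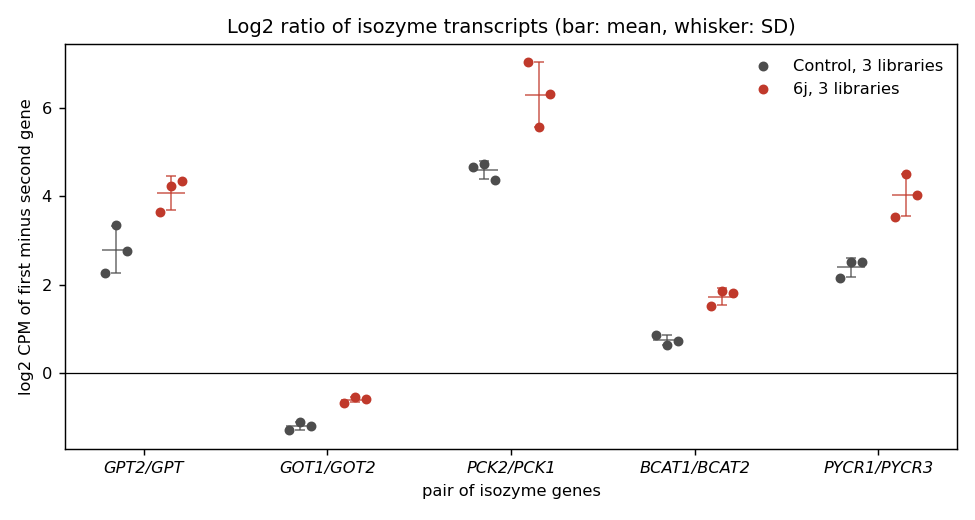
Log2 CPM of an enzyme gene minus that of its isozyme gene in the 3 non-treated (Control, grey) and 3 6j treated libraries (red), with mean (bar) and SD (whisker), for 5 pairs. The red points lie above the grey points in each pair, the difference between the group means is smallest in GOT1/GOT2 (0.60), and the nearest points of the groups are closest in GPT2/GPT.

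Other enzymes of the same pathways were taken from lists by function, 66 genes with the isozymes, of which 52 were tested. There was 1 DEG that rose and 1 that fell among the 52 (3.85%), close to the 3.6% of all rows that were DEGs in either direction. Log2 fold changes were above 0 for 11 and below 0 for 41 of them, with a median of −0.21. The groups did not overlap with 6j treated cells lower in 21 of the 52 (40.4%, against 15.8% of all rows) and higher in 8 (15.4%, against 16.0%). The DEG that rose was GFPT1, which uses glutamine to begin hexosamine synthesis. It was at 122.6, 122.9 and 140.1 CPM in non-treated and 244.9, 375.7 and 327.1 CPM in 6j treated cells, with no overlap and a rise of 1.30 on the log2 scale (SE 0.15, adjusted p = 0.0037 in edgeR). The DEG that fell was ALDH4A1, which oxidises pyrroline-5-carboxylate back towards glutamate. It was at 10.9, 10.1 and 10.2 CPM in non-treated and 7.42, 5.32 and 5.97 CPM in 6j treated cells, again with no overlap, and fell by 0.74 on the log2 scale (SE 0.17, adjusted p = 0.0299 in edgeR). ALDH4A1 was a DEG in 1 of the 6 fits that left out 1 library, that without 6j replicate 1, and over the 6 fits its adjusted p in edgeR ranged up to 0.126. It shares exon bases on its strand with AL080251.1.

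**Figure D5:**
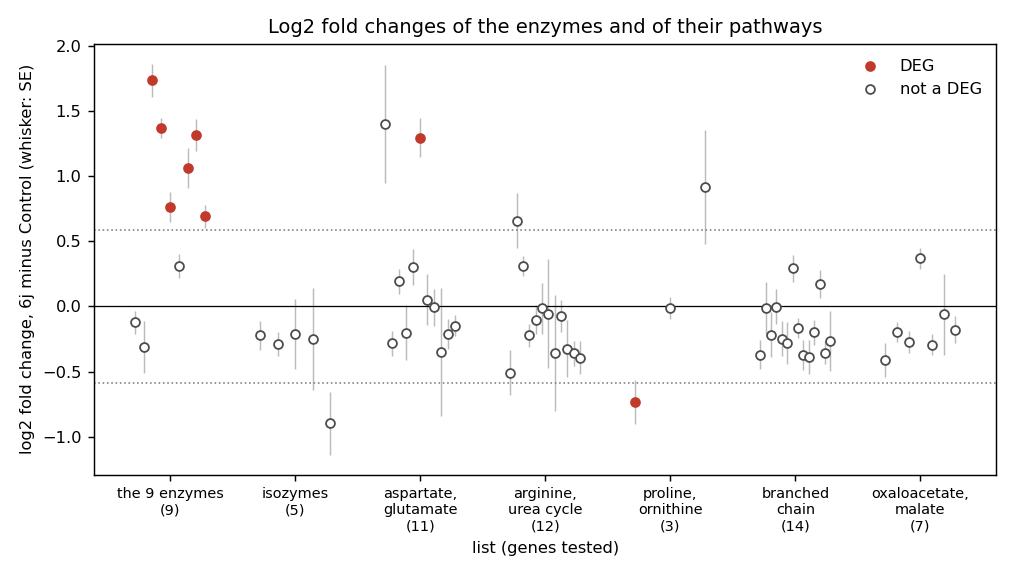
Log2 fold change of 6j treated against non-treated cells with its SE (whisker) for the 9 enzymes and for 6 lists of other enzymes, with the number of genes tested under each name; red points are DEGs and dotted lines mark 1.5-fold. The 6 DEGs of the first column rise, GFPT1 is the DEG that rose and ALDH4A1 the DEG that fell in the other lists, and most open points lie just below 0.

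On the arginine and urea cycle list, no DEG was found among the 12 genes tested. AZIN1, which restrains the decay of ornithine decarboxylase, had the smallest adjusted p of the list, with 178.9 ± 8.34 and 221.6 ± 9.03 CPM (SD, n = 3 each) in non-treated and 6j treated cells. Its adjusted p was 0.0393 in edgeR and its log2 fold change 0.31, below the fold threshold. ARG2, a mitochondrial arginase, had 5.15, 4.16 and 4.25 CPM in non-treated and 5.36, 7.99 and 8.09 CPM in 6j treated cells. ARG2 was no DEG (log2 fold change 0.66, with adjusted p = 0.0884 in edgeR) and was a DEG when replicate numbers were fitted as blocks (adjusted p = 0.0371 in edgeR) and in DESeq2 (adjusted p = 0.0484). ARG2 overlaps VTI1B on the opposite strand. CPS1, the entry enzyme of the urea cycle and by far the most abundant gene of this list, was at 1610.9 ± 63.1 and 1381.1 ± 57.7 CPM (SD, n = 3 each), which did not overlap, and its log2 fold change was −0.22 (adjusted p = 0.145 in edgeR). OTC, the enzyme between CPS1 and ASS1 in the urea cycle, had no count in any library, and ARG1 was too low to be tested. CPS1, OTC, ARG1 and ARG2 were picked for the text after their values had been seen.

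The other lists gave few calls. Of 14 genes of branched chain amino acid breakdown none was a DEG, and 12 had log2 fold changes below 0. MCCC2, a subunit of an enzyme of leucine breakdown, had the smallest adjusted p of the list, with 98.6 ± 5.75 CPM in non-treated and 77.1 ± 5.52 CPM in 6j treated cells (SD, n = 3 each). Its log2 fold change, −0.35 (adjusted p = 0.0359 in edgeR), was too small for a DEG. Of 7 genes of oxaloacetate and malate use none was a DEG, and 6 had log2 fold changes below 0. ME1, the cytosolic malic enzyme, was the exception, with 55.8 ± 1.83 CPM in non-treated and 72.1 ± 4.32 CPM in 6j treated cells (SD, n = 3 each). Its log2 fold change, 0.37 (adjusted p = 0.0248 in edgeR), was again too small for a DEG. With 1 library left out, the adjusted p in edgeR ranged up to 0.18 for AZIN1, 0.154 for MCCC2 and 0.127 for ME1. Of the 11 tested genes of aspartate and glutamate use, GFPT1 was the single DEG, and ABAT, which breaks down the glutamate product GABA, differed by 1.40 on the log2 scale (adjusted p = 0.0872 in edgeR) on at most 33 counts in a library. Of the 3 tested genes of proline and ornithine use, ALDH4A1 was the single DEG. PRODH, which begins proline breakdown, differed by 0.92 on the log2 scale (adjusted p = 0.222 in edgeR) on at most 44 counts in a library. ABAT and PRODH were picked for the text after their values had been seen.

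The profile of the 9 genes was set beside those of the other genes. In each library the standardised log2 CPM of the 9 was averaged, and 12696 genes outside the lists with a mean log2 CPM of at least 1 were ranked by their Pearson correlation with this average over the 6 libraries. The 5 most alike were TMEM39A (r = 0.997), RNF187 (0.995), Homo_sapiens_newGene_5837 (0.995), LYRM2 (0.994) and C6orf48 (0.994). The points share their library and the treatment, so these values are a description. The log2 fold changes of the 5 were 0.57, 0.96, 0.67, 0.22 and 0.67 in the same order, smaller than that of ASNS. RNF187 was the DEG among them with the largest rise, from 160.1, 161.5 and 163.7 CPM to 294.7, 313.7 and 336.1 CPM in 6j treated cells. Within the 9 genes, each of the 7 that lay higher had a correlation with the mean of the other 8 of 0.703 (GOT1) to 0.988 (ASS1), and ASL and ALDH18A1 had −0.561 and −0.586. The difference between the groups was left in these values. As the 9 genes were chosen on it, the correlations restate that choice and nothing is read from them.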

How the data were processed

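Total RNA of MHCC-97H cells was enriched for mRNA with oligo(dT) beads per the labels. The deposited table holds raw whole-number counts for 25445 genes in 6 libraries, and the submitters' processing notes name HISAT2, StringTie and GRCh38. The step that made whole numbers and the annotation are not given in the sources used here. Rows at 1 count (142 to 175 per library) were fewer than rows at 2 (557 to 692), so the counts may be rounded estimates. They were used as deposited, with all 6 columns.

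Low rows were removed by filterByExpr (minimum count 10, minimum total 15), TMM factors were computed, and the 15957 rows left were tested with the robust quasi-likelihood test of edgeR 4.0.16 in R 4.3.3. No covariate was used, and p-values were adjusted by Benjamini-Hochberg over all rows. They measure only the spread between these libraries. SEs were computed from the F statistic. The study's methods name DESeq2 with a 1.5-fold threshold and p below 0.05, and do not say whether that p was adjusted. DESeq2 1.42.0 was an alternative here, with calls on the adjusted p, so its DEGs need not match those of the study. Log2 CPM of single libraries and their ratios carry a prior count of 2. The upper limit for a count of 0 (3 counts) covers counting error only. The replicate numbers were taken as pairs because each correlation of same-numbered libraries exceeded 0.1, although no source says what a number marks. A fit with the replicate number as a block was an alternative, as were other normalizations, filters, thresholds and leaving out each library. On simulated data with 200 genes changed 2-fold, edgeR recovered 79% with 12 false calls over 15676 genes and DESeq2 85% with 29 over 15957 genes.

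Coordinates, exon lengths and overlaps came from GENCODE version 29 (GRCh38), which holds all 19974 Ensembl identifiers of the table. For the other 5471 rows, named as new genes, no coordinates were used. The members and lists were chosen with earlier results of these data known. Named genes were the 9 enzymes, their isozymes, ATF4, in each other pathway list every DEG or else the gene with the smallest adjusted p, and the 5 genes most alike in profile. Exceptions are marked, and the markers named as checks of cell type were picked after their values had been seen. Some genes of these lists are not reported here.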

Additional observations from a re-analysis of the deposited data

How the results depend on the processing

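The count of 6 enzyme genes that rose was the same with DESeq2, 2 other normalizations, no filter on low counts, the replicate block and both other thresholds, and was 5 to 6 when 1 library was left out. None of the 9 enzyme genes was called lower in any of these fits. Fitting the replicate number as a block (replicate block) gave 640 DEGs that rose and 393 that fell over all rows, against 396 and 178. With an unadjusted p they were 753 and 383, and with no fold threshold 765 and 697. With 1 library left out they ranged from 135 to 482 and from 51 to 290. Without 6j replicate 2, 142 rose and 51 fell, without non-treated replicate 1, 135 rose and 51 fell, without non-treated replicate 3, 254 rose, and without 6j replicate 1, 290 fell. Among the other pathway genes, the calls that rose and fell were 2 and 2 with DESeq2, 2 and 2 with the replicate block, 3 and 2 with an unadjusted p, 3 and 3 with no fold threshold, and 1 to 2 and 0 to 3 with 1 library left out. With 1 library left out, the log2 fold change ranged from −0.40 to 0.016 for GPT and from −0.77 to 0.055 for PCK1, neither of them a DEG. The cause of these shifts was not tested. The replicate block made DEGs of PYCR3 and ARG2 and changed no other call among the 9 enzyme genes and the other pathway genes. The 7 ratios of gene pairs kept their direction under each setting run, with 2 of the pairs and their settings added after the values had been seen. With the longest transcript as length, non-treated levels per kb were 79.3 for ASS1, 52.7 for PYCR1, 36.8 for ALDH18A1, 31.4 for ASNS, 26.1 for GOT1, 21.1 for PCK2, 7.48 for GPT2, 6.36 for BCAT1 and 5.71 for ASL. GPT and PCK1 rest on at most 222 and 108 counts in a library.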
